A study of Mus musculus with 24 samples.

Results

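The Zfp9xx genes are mouse genes whose symbols run from Zfp930 to Zfp964 and which encode zinc-finger proteins, most of them of the KRAB class. They were taken from the deposited count table by symbol alone, as every row named Zfp9 followed by 2 more digits, which gave 33 of 34745 rows. Expression of these genes was compared between 6 M-Z+ and 6 M-Z- embryos of the 129/DBA hybrid background, collected whole at E13.5, with 1 RNA-seq library per embryo. Both genotypes come, per the study's description of the mating, from Zfp57-/- 129 mothers crossed with Zfp57+/- fathers that carry a mainly DBA/2J background. A M-Z+ embryo (Zfp57-/+) therefore lacks the maternal supply of Zfp57 but has a wild-type allele from its father, and a M-Z- embryo (Zfp57-/-) lacks both. Embryos with maternal Zfp57 were not analysed here, so every level below was measured in embryos of Zfp57-null mothers. The deleted allele was made in the 129 line, so the paternal chromosome of a M-Z- embryo can also carry 129 sequence flanking Zfp57, and such flanking sequence cannot be told apart from the loss of the gene itself.

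A KRAB zinc-finger protein reads DNA with a run of C2H2 fingers and uses its KRAB domain to bring in TRIM28, which assembles a complex with the histone methyltransferase SETDB1 and silences the bound region. Many of these proteins bind transposable elements, and ZFP57 is the member that keeps DNA methylation on imprinting control regions. The family grew by repeated local duplication, so its genes lie in clusters of close relatives, and their lists differ widely between rodents and primates. Apart from Zfp932, which is known to repress endogenous retroviruses together with its near copy Gm15446, roles of the single Zfp9xx genes are not described below, since few are known.

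The transcripts of a GENCODE annotation matched 30 of the 33 genes by identifier. An annotated coding sequence of 27 of the 30 held a match to the core of the KRAB box, against 1.19% of 22737 genes. Zfp939, Zfp956 and Zfp957 held none. C2H2 fingers, spaced as C, 2 residues, C, 12 residues, H, 3 to 5 residues and H, were found in 29 of the 30, with a median of 10.5 fingers. Zfp945 had the most, 18 fingers, and Zfp957 had 0. The name KRAB zinc-finger gene therefore held for all but a few of the 30 by this search.

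The promoters of 3 genes are shown, for the 6-base motif TGCCGC or for a start region shared by a head-to-head pair of genes. ZFP57 binds this motif when it is methylated. Neither methylation nor binding at these promoters was examined here. Windows of 250 bases before to 50 bases after the start, from RefSeq on GRCm38.p6, were found for 30 of the 33 genes. TGCCGC was present on either strand in the windows of 2 of the 30 genes (6.67%), against 13.1% of 27025 genes. The window of Zfp956 is chr6:47953140-47953439 on the plus strand, and the window of Zfp961 is chr8:71950816-71951115 on the plus strand, with the motif in capitals and written GCGGCA where it reads on the other strand. The motif began 23 bases after the start in Zfp956 and 42 bases after it in Zfp961.
Zfp956: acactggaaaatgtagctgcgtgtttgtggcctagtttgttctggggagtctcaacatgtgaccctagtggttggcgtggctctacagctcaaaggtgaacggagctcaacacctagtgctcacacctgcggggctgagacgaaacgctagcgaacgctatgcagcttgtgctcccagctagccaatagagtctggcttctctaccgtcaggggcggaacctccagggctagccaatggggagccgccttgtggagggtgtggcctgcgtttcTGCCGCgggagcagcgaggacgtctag
Zfp961: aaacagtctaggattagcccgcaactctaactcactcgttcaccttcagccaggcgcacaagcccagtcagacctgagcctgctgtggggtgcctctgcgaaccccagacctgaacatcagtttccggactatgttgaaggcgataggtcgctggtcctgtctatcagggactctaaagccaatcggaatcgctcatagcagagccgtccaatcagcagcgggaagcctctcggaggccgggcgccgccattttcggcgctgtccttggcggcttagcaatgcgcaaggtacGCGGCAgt
The third sequence, chr17:21962415-21962714 read on the minus strand, is the window of Zfp942. Capitals mark its 194 bases that also belong to the window of Zfp943, which starts only 95 bases away and runs in the opposite direction.
Zfp942: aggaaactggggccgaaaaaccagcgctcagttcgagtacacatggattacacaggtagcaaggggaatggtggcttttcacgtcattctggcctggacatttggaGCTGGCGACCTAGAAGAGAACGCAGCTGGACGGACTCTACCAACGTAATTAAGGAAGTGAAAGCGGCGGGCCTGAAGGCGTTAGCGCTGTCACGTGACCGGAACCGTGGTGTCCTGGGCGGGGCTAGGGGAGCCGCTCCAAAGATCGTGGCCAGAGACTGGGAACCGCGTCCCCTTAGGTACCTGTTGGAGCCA
CpG dinucleotides numbered from 3 to 24 in the windows of the Zfp9xx genes, with a median of 9 against 8 over all genes.

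The genes lay on 12 chromosomes. Chromosome 17, which also carries Zfp57, held 10 of them, and chromosomes 7 and 8 held 5 each. A run of 7 genes, in the order Zfp948, Zfp942, Zfp943, Zfp947, Zfp944, Zfp946 and Zfp945, filled chr17:21567046-22867134 on mm10. This cluster ended 14.1 Mb from Zfp57 (chr17:37001163-37010635). Zfp952 was the nearest to Zfp57 at 4 Mb, Zfp960 lay 19.9 Mb away on the same side, and Zfp959 lay 18.9 Mb away on the other side. A smaller run at chr8:69226343-69749970 held Zfp930, Zfp964 and Zfp963.

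Total counts on genes were 12347383 to 19216288 per M-Z+ library and 12005145 to 14617373 per M-Z- library. Counts were scaled to a common library size (CPM) with the TMM method of edgeR, and TPM, which also divides by gene length, is used wherever genes are compared with each other. Zfp57 itself had 19.1 to 40.8 CPM (median 23.7) in the M-Z+ embryos and 17.8 to 27.8 CPM (median 26.5) in the M-Z- embryos. The groups overlapped, with a log2 fold change of -0.15 ± 0.18 (SE; edgeR adjusted p = 0.828). The deleted part of Zfp57 is not named in the labels, so this level does not check the genotypes, and each direction below rests on the labels. The libraries also differed in how steeply log2 CPM rose with log2 gene length. This gene length slope was 0.66 to 0.67 in M-Z+ replicate 6 and in M-Z- replicates 5 and 6, and 0.437 to 0.567 in the other 9. Results are for all 12 embryos, and some are also given without those 3.

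Most Zfp9xx genes were expressed at a low to moderate level in the whole embryo. A total of 31 of the 33 passed edgeR's filter on low counts. Zfp936 had 7 counts in all, spread over 3 libraries of both genotypes, and Zfp957 had 2 counts in 1 M-Z+ library, so neither was tested. In bulk tissue a lower level can come from fewer expressing cells or from less RNA per cell, and these cannot be told apart. The median level of the 31 genes was 9.85 TPM, against 13.5 TPM for the 287 other Zfp genes that were tested and 16.9 TPM for all 16026 tested genes.

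Zfp948, a gene with 15 fingers at the edge of the chromosome 17 cluster, had the highest mean level, at 28.1 ± 7.74 TPM in M-Z+ and 29.5 ± 8.96 TPM in M-Z- embryos (SD, n = 6 each). Zfp935 on chromosome 13 followed with 24.6 ± 10.5 and 31.3 ± 7.14 TPM, Zfp930 on chromosome 8 with 21.6 ± 9.07 and 25.4 ± 9.24 TPM, and Zfp954 on chromosome 7 with 22.8 ± 1.66 and 21.4 ± 2.09 TPM. Each of these differed from the next by less than the larger of the SDs. The next 6 were Zfp949, Zfp944, Zfp959, Zfp946, Zfp952 and Zfp963, with means over all embryos from 12.8 to 19.0 TPM. At the other end stood Zfp947, at 1.85 ± 1.07 and 1.69 ± 0.972 TPM, and Zfp951, at 1.74 ± 0.957 and 1.63 ± 0.699 TPM. Within the chromosome 17 cluster the level thus ranged from the highest to nearly the lowest of all 31 genes.

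**Figure D1:**
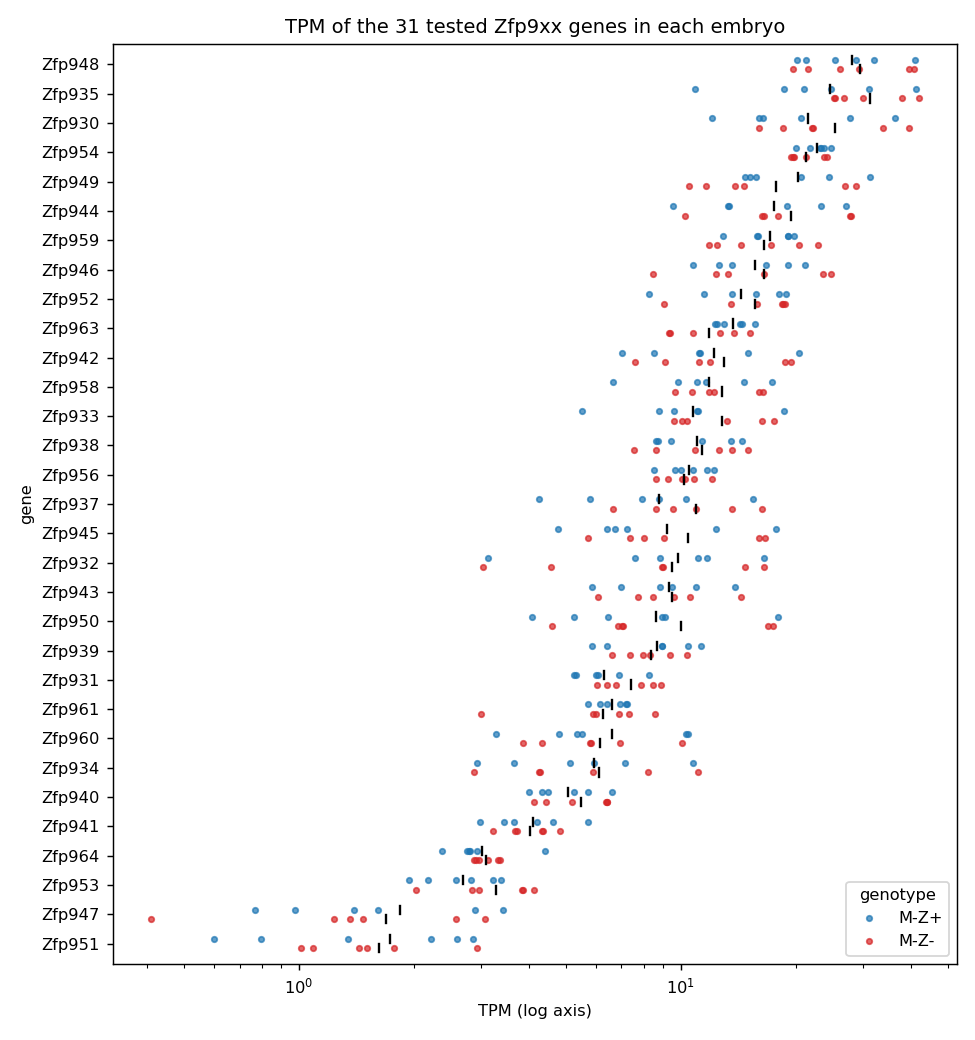
TPM of the 31 tested Zfp9xx genes on a log axis, with 1 point per embryo (blue, M-Z+; red, M-Z-) and a black tick at the mean of each genotype. The 2 colours overlap in every gene, from Zfp948 at the top to Zfp951 at the bottom.

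The question for each gene was whether its level differed between embryos with and without zygotic Zfp57. None of the 31 Zfp9xx genes was called changed by edgeR's quasi-likelihood test (adjusted p under 0.05, log2 fold change past 0.5 either way), where 0.0811% of all tested genes (13 of 16026) were called. The count at an unadjusted p below 0.05 was also 0 of 31, against 6.7% of all tested genes, and DESeq2 called 0. In no Zfp9xx gene did the 6 values of one genotype lie on one side of the other 6, which 0.574% of all tested genes showed. The log2 fold changes of M-Z- over M-Z+ ran from -0.24 to 0.33 with a median of 0.01, beside a median of -0.01 over all tested genes. Values were above 0 in 18 genes and below 0 in 13, and with upper quartile scaling in 15 and 16.

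These tests set limits on the size of a difference. In the fit with genotype alone, the 95% interval of the log2 fold change lay within 1 in either direction for 30 of the 31 genes. The exception was the weakly expressed Zfp947, with -1.03 to 0.76. It lay within 0.5 in either direction for 13 genes. The narrowest interval was that of Zfp954, from -0.33 to 0.07.

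Zfp963 (chr8:69741639-69749970) had the smallest p. Its levels were 9.79 to 12.2 CPM (median 10.4) in M-Z+ and 7.3 to 11.1 CPM (median 9.18) in M-Z- embryos. Replicates 1, 2 and 3 of M-Z- lay below every M-Z+ embryo, and replicates 4, 5 and 6 lay among them. The log2 fold change was -0.24 ± 0.12 (SE), with an edgeR adjusted p of 0.749 and an exact two-sided permutation p of 0.0584, where the smallest p that 6 against 6 can give is 0.00216. Of its transcript sequence, 39.1% in 50-base words was shared with another gene, nearly all with Gm20422. That row overlaps Zfp963 and held 65 counts in all, against 1701 for Zfp963. How reads in the shared sequence were assigned is not given in the sources used here. Without the 3 embryos of steepest slope the log2 fold change was -0.40 (edgeR adjusted p = 0.637).

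Zfp935 (chr13:62454323-62466709) had the largest log2 fold change, 0.33 ± 0.23 (edgeR adjusted p = 0.756). It ran from 3.56 to 11.5 CPM (median 7.04) in M-Z+ and from 7.65 to 11.9 CPM (median 8.54) in M-Z- embryos. The low end was set by M-Z+ replicate 4 at 3.56 CPM and M-Z+ replicate 1 at 5.8 CPM, and the upper ends of both genotypes met. Zfp937 on chromosome 2 had 3.67 to 11.4 CPM (median 6.74) against 5.3 to 12.3 CPM (median 8.17), with the same embryo, M-Z+ replicate 4, lowest. The log2 fold change came to 0.31 ± 0.26 (edgeR adjusted p = 0.773).

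The other 7 of the 10 genes with the smallest p were Zfp931, Zfp954, Zfp953, Zfp933, Zfp949, Zfp930 and Zfp956, with edgeR adjusted p between 0.753 and 0.852. Zfp931, on chromosome 2 like Zfp937, was at 6.6 to 9.33 CPM (median 7.67) and 7.4 to 10.3 CPM (median 8.7), one of the steadiest of these genes. Zfp933 on chromosome 4 was at 7.6 to 21.9 CPM (median 13.1) and 12.3 to 20.9 CPM (median 14.9). In both genes the range of one genotype covered most of the other.

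Zfp949 (chr9:88548020-88571061) divided the embryos in another way. It stood at 25.6 to 48.9 CPM (median 30.5) in M-Z+ and 17.7 to 45.9 CPM (median 23.9) in M-Z- embryos. In M-Z- replicates 1 to 4 it was at 23.1, 24.8, 17.7 and 20 CPM, each below the lowest M-Z+ embryo, while M-Z- replicates 5 and 6 had 45.9 and 42.6 CPM. The log2 fold change came to -0.24 ± 0.25 (edgeR adjusted p = 0.801). Without the 3 embryos of steepest slope it was -0.56, with an unadjusted p of 0.00604 and an edgeR adjusted p of 0.594, a comparison chosen after the values were seen.

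**Figure D2:**
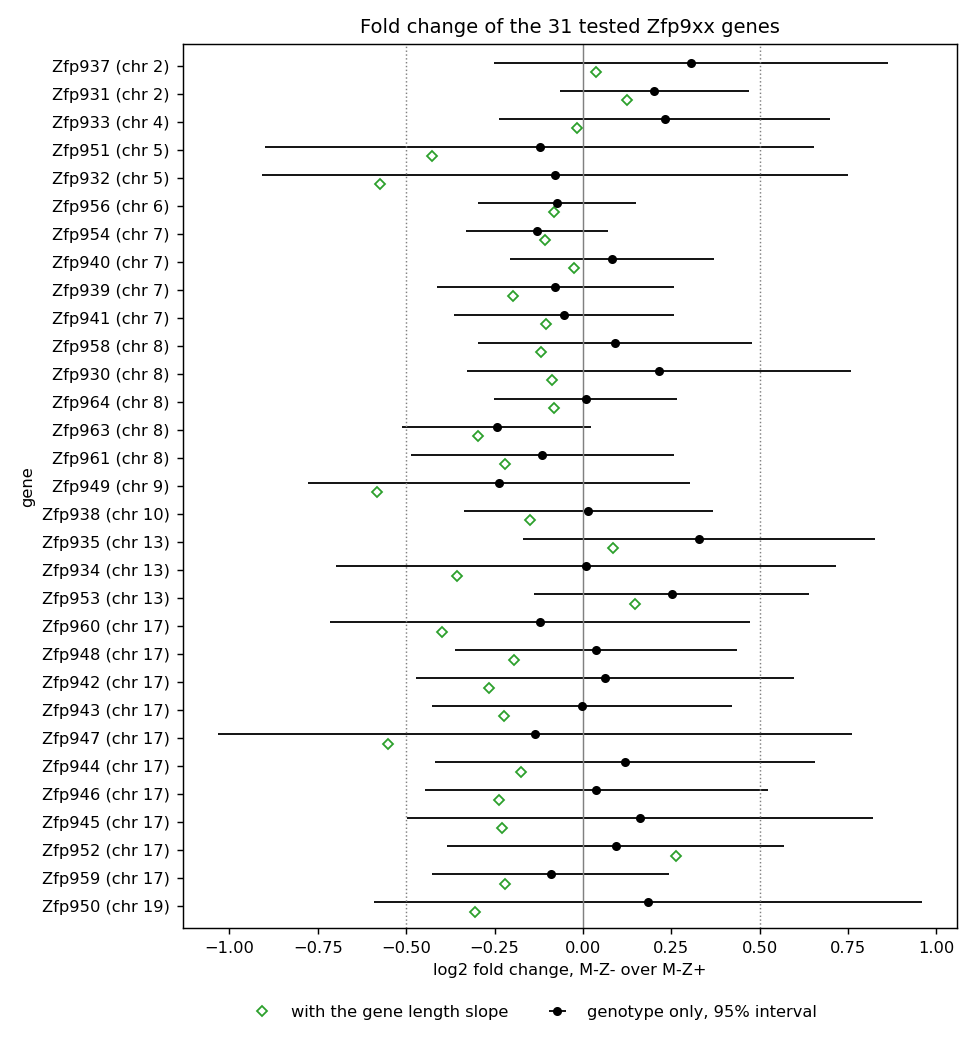
Log2 fold change of M-Z- over M-Z+ for the 31 tested Zfp9xx genes, grouped by chromosome, with the 95% interval (black) and the value when the gene length slope entered the model (green). The black points lie between -0.24 and 0.33 and each interval crosses 0, and 26 of the 31 green points lie below 0.

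By chromosome, the direction was mixed wherever more than a few genes were measured. On chromosome 17, 6 genes had values above 0 and 4 below, with a median of 0.04 and a range from -0.14 to 0.16. Zfp952, the gene nearest to Zfp57, had a log2 fold change of 0.09 ± 0.22 (edgeR adjusted p = 0.912). Of the 16 other rows inside the chromosome 17 cluster, 10 were tested, 0 were called and 0 had an unadjusted p below 0.05 in edgeR, with a median log2 fold change of 0.02. Of the 9 other rows inside the chromosome 8 run, 5 were tested, with 0 called and 1 at an unadjusted p below 0.05 in edgeR. Their median log2 fold change was 0.17. Over all tested genes 6.7% had an unadjusted p below 0.05. On chromosome 13 all 3 genes had values above 0 (Zfp934, Zfp935 and Zfp953), and on chromosome 8, 3 of 5 did.

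The direction of the list depended on the gene length slope. When the slope entered the edgeR model as a covariate, 5 of the 31 values were above 0 and 26 below, with a median of -0.20. Over all tested genes 8125 were above 0 and 7901 below, with a median of 0.00. The other Zfp genes turned the same way, from 177 above 0 and 110 below without the slope to 108 and 179 with it. Their median went from 0.04 to -0.05, so the turn was not particular to the Zfp9xx genes. No Zfp9xx gene was called. An unadjusted p below 0.05 was reached by 4 of 31 genes, beside 9.82% of all tested genes: Zfp949 at -0.58 ± 0.17 (adjusted p = 0.304), Zfp932 at -0.57 ± 0.27 (adjusted p = 0.507), Zfp963 at -0.30 ± 0.13 (adjusted p = 0.472) and Zfp942 at -0.27 ± 0.11 (adjusted p = 0.468), all log2 with SE and edgeR's adjusted p. The slopes of the M-Z- libraries were 0.533 to 0.67 and those of the M-Z+ libraries 0.437 to 0.668. Whether the slope reflects the embryos or the libraries was not tested.

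Differences between embryos of one genotype were larger than the difference between genotypes. The summed level of the 31 genes was 360, 483, 386, 315, 464 and 600 CPM in M-Z+ replicates 1 to 6. It was 400, 427, 306, 361, 607 and 569 CPM in M-Z- replicates 1 to 6. The means were 435 ± 103 and 445 ± 118 CPM (SD, n = 6 each), so the genotype means lay far closer together than the embryos of either genotype.

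The same embryos were high or low in gene after gene. M-Z+ replicate 6 was above the gene's mean over the 12 embryos, on the log2 scale, in 30 of the 31 genes, M-Z- replicate 5 in 29, M-Z- replicate 6 in 27 and M-Z+ replicate 2 in 25. M-Z- replicate 3 was below it in 30 of 31 and M-Z+ replicate 4 in 27. M-Z- replicate 5 was the highest of all embryos in 10 Zfp9xx genes, as it was in 9.18% of all tested genes, and M-Z+ replicate 6 in 9, as it was in 11.4% of them. M-Z- replicate 3 and M-Z+ replicate 4 were each the lowest in 11, as they were in 7.56% and 19.1% of all tested genes. The other Zfp genes were shifted the same way by a smaller amount. Their median log2 deviation was 0.22, 0.19 and 0.21 in M-Z+ replicate 6 and M-Z- replicates 5 and 6, where that of the Zfp9xx genes was 0.45, 0.46 and 0.37. In M-Z+ replicate 4 and M-Z- replicate 3 it was -0.23 and -0.09, against -0.38 and -0.43 for the Zfp9xx genes.

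**Figure D3:**
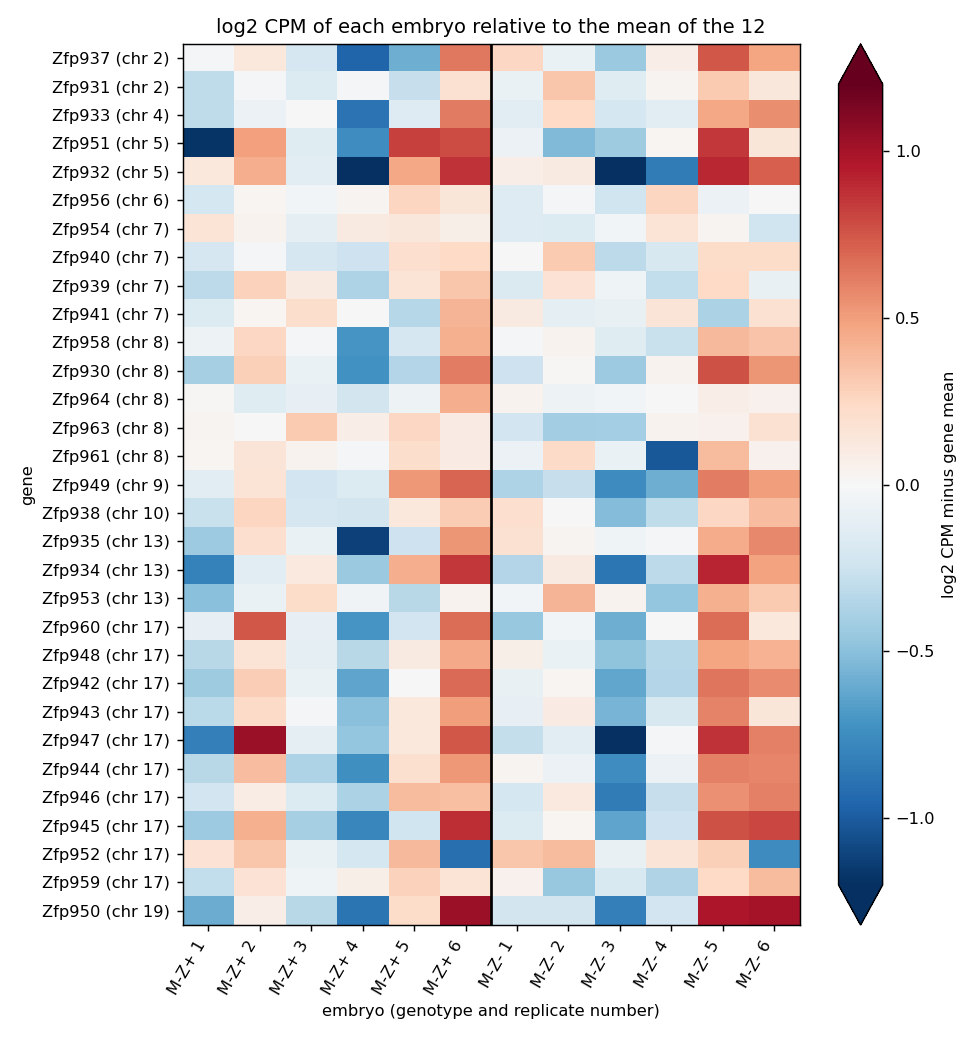
Log2 CPM of each embryo minus the mean of the 12 embryos for the 31 tested Zfp9xx genes, grouped by chromosome (red, above the gene's mean; blue, below; the colours saturate at the ends of the scale). The columns of M-Z+ replicate 6 and M-Z- replicates 5 and 6 are red and those of M-Z+ replicate 4 and M-Z- replicate 3 blue in nearly every row, whereas Zfp952 is blue in both replicate 6 embryos.

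The cluster genes Zfp942 and Zfp945 showed the pattern most clearly, and both were chosen for it after their values were seen. Zfp942, which shares its start region with Zfp943, had 17.2, 28.4, 22, 14.9, 23.1 and 37.2 CPM in M-Z+ replicates 1 to 6. In M-Z- replicates 1 to 6 it had 21.8, 23.5, 15, 18.1, 36.2 and 34.5 CPM. Its lowest and highest M-Z+ embryos thus nearly matched its lowest and highest M-Z- embryos, and the log2 fold change came to 0.06 ± 0.25 (edgeR adjusted p = 0.948).

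Zfp945, with its 18 fingers, had 27.4, 49.6, 28, 21.5, 31.3 and 68.3 CPM in M-Z+ and 32.9, 37.7, 23.8, 31.1, 63 and 64.6 CPM in M-Z- embryos. The 3 high embryos were again M-Z+ replicate 6 and M-Z- replicates 5 and 6. Zfp950 on chromosome 19, which overlaps Grk5, went from 16.2 to 61 CPM in M-Z+ and from 16.9 to 60.1 CPM in M-Z- embryos, with the same 3 embryos highest. The log2 fold change came to 0.18 ± 0.36 (edgeR adjusted p = 0.897).

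Zfp932 had the largest spread. It was at 20.9, 25.9, 17.4, 7.77, 26.4 and 35.1 CPM in M-Z+ and 20.2, 20.6, 6.98, 10.7, 35.9 and 31.6 CPM in M-Z- embryos. M-Z+ replicate 4 and M-Z- replicates 3 and 4 were low, a 5.14-fold range from lowest to highest embryo. Of its transcript, 38.2% in 50-base words was shared with other genes, mostly Gm15446, so this level may hold reads of that copy. The ratio of highest to lowest embryo ran from 1.33 in Zfp954 to 8.02 in Zfp947, where the lowest embryo had only 4 counts.

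The median spread was wider than in other genes, in a comparison not matched for level. The biological coefficient of variation (BCV), which edgeR estimates between embryos of one genotype after counting error, had a median of 0.265 over the 31 genes, against 0.178 over the other Zfp genes and 0.164 over all tested genes. The median level was 12.5 CPM in the Zfp9xx genes, 22.6 CPM in the other Zfp genes and 27.3 CPM in all. The part of this lower level in the wider spread was not tested. It was largest in Zfp932, Zfp947, Zfp950, Zfp951 and Zfp934, with 0.385 to 0.462, and smallest in Zfp954, Zfp956, Zfp964, Zfp931 and Zfp963, with 0.117 to 0.148. With the gene length slope in the model the median fell to 0.145 for the Zfp9xx genes, 0.121 for the other Zfp genes and 0.118 for all.

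The levels of the 31 genes moved together across the 12 embryos. The median Pearson r over their 465 pairs was 0.587, on log2 CPM minus the mean of the genotype, and 86% of the pairs were above 0. The median was 0.224 over pairs of the other Zfp genes and 0.00 over pairs of 2000 genes drawn from all. Pairs on the same chromosome had a median of 0.636 (66 pairs), and pairs on different chromosomes one of 0.572 (399 pairs). In the 9 embryos other than the 3 of steepest slope, on log2 CPM without that subtraction, the median over the Zfp9xx pairs was 0.406. That over the other Zfp pairs was 0.1. With genotype and slope both removed from all 12, the Zfp9xx median was 0.243. It was 0.394 for pairs on the same chromosome and 0.223 for pairs on different ones. The measures differ in what was removed, so these medians are not like for like. These values describe genes measured in the same libraries, which share depth and slope.

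The 5 most alike pairs over the 12 embryos lay both within and across chromosomes. Zfp945 and Zfp942 (r = 0.974), Zfp948 and Zfp942 (0.972), and Zfp943 and Zfp942 (0.954) are pairs of the chromosome 17 cluster. Zfp942 with Zfp950 on chromosome 19 (0.961) and Zfp945 with Zfp930 on chromosome 8 (0.956) are pairs on different chromosomes.

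**Figure D4:**
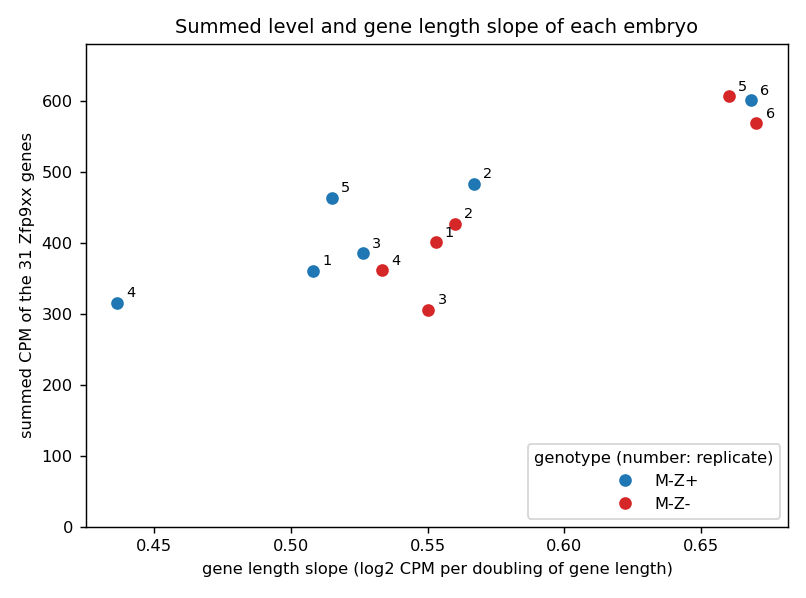
Summed CPM of the 31 tested Zfp9xx genes (vertical axis) against the gene length slope of the library (horizontal axis, log2 CPM per doubling of gene length), with 1 point per embryo (blue, M-Z+; red, M-Z-; the number is the replicate). The 3 embryos with slopes of 0.66 to 0.67 have the highest sums, 569 to 607 CPM, and the other 9 lie between 306 and 483 CPM.

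The slope term of the edgeR model was past an adjusted p of 0.05 in 21 of the 31 genes, beside 41.9% of all tested genes. All 21 were positive, a direction that 21% of all tested genes shared. Of the 287 other Zfp genes, 152 were past it, 134 of them positive and 18 negative, so a mostly positive term was not particular to the Zfp9xx genes. The Zfp9xx genes were not long: their median length, as implied by the deposited FPKM, was 4470 bases, against 5124 over all tested genes. In the 3 embryos of steepest slope the summed level was 569 to 607 CPM, and in the other 9 it was 306 to 483 CPM. Within those 9 the Pearson r between the slope and the log2 summed level was 0.494 and Spearman's rho was 0.533, both given as a description of libraries that enter both measures.

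A few Zfp9xx genes departed from the shared pattern. Zfp952 (chr17:32993129-33005457) was low in exactly 2 embryos, at 10.5 CPM in M-Z+ replicate 6 and 11.6 CPM in M-Z- replicate 6, and stood between 17.1 and 25.8 CPM in the other 10. These 2 embryos were above the mean in most other Zfp9xx genes, and the median r of Zfp952 with the other 30 genes was -0.30. Zfp954 (chr7:7114690-7121445) was almost level, at 11.4 to 13.9 CPM (median 13.2) in M-Z+ and 10.5 to 13.9 CPM (median 11.6) in M-Z- embryos, and its median r was -0.19.

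Zfp961 (chr8:71951038-71993408), one of the pair of genes with a TGCCGC in the promoter window, stood at 20.6 to 28.3 CPM in 11 embryos and at 10.7 CPM in M-Z- replicate 4. The log2 fold change came to -0.11 ± 0.17 (edgeR adjusted p = 0.863), and 0.02 without that embryo. Zfp956 (chr6:47953390-47965300), the other one, was at 14.3 to 19.8 CPM (median 16.9) and 14 to 19.9 CPM (median 16.1), with a log2 fold change of -0.07 ± 0.10 (edgeR adjusted p = 0.852). It overlaps Zfp783, and how reads in the overlap were counted is not given in the sources used here.

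**Figure D5:**
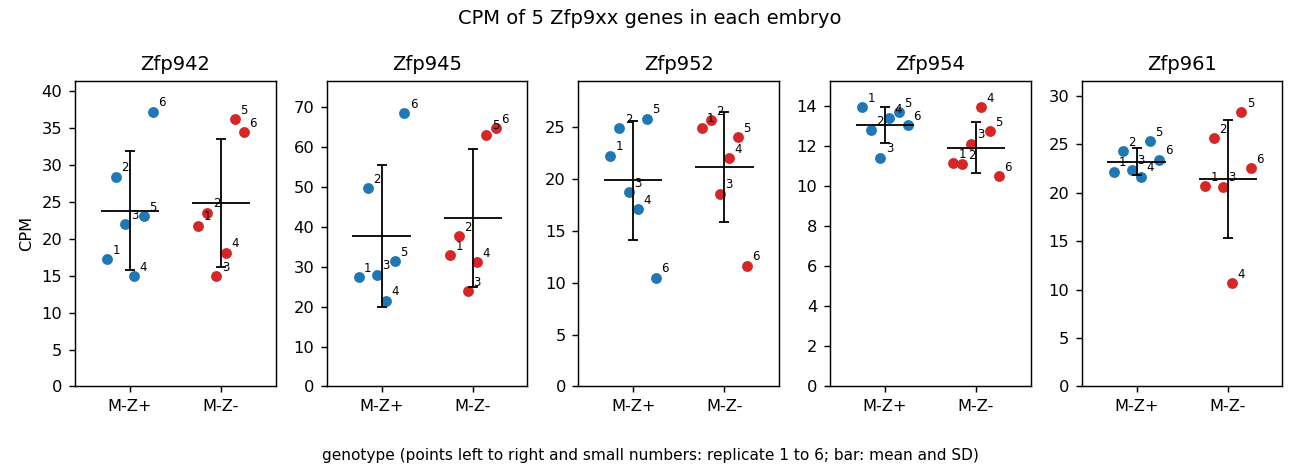
CPM of Zfp942, Zfp945, Zfp952, Zfp954 and Zfp961 in each embryo (vertical axes start at 0; blue, M-Z+; red, M-Z-; small numbers, replicate; bars, mean and SD of 6). Zfp942 and Zfp945 are high in M-Z+ replicate 6 and M-Z- replicates 5 and 6, Zfp952 is low in both replicate 6 embryos, Zfp954 is nearly level, and Zfp961 is low in M-Z- replicate 4.

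The partners of these proteins were measured in the same libraries. A list of 18 genes of the KRAB repressor complex and related silencers was fully tested. In edgeR 0 of 18 were called, beside 0.0811% of all tested genes. At an unadjusted p below 0.05 there were 0 of 18, beside 6.7% of all tested genes, so a list this short says little. The log2 fold changes ran from -0.08 to 0.37. Trim28, the scaffold that KRAB domains bind, had 433 to 638 CPM (median 495) in M-Z+ and 438 to 523 CPM (median 487) in M-Z- embryos. Its difference on the log2 scale was -0.08 ± 0.09 (edgeR adjusted p = 0.810). Zfp445, which like Zfp57 acts at imprinting control regions, had 85.9 ± 44.0 and 111 ± 35.0 CPM (SD, n = 6 each), with a log2 fold change of 0.37 ± 0.31 (edgeR adjusted p = 0.768).

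The summed level of this list of 18 genes rose and fell with the Zfp9xx genes from embryo to embryo. Against the median log2 deviation of the 31 genes its log2 sum had r = 0.896 over 12 embryos and 0.667 over the 9 without the steepest slopes. A list of 8 hepatocyte genes went the other way, with r = -0.84 over 12 embryos and -0.60 over 9. The gene length slope itself had r = 0.853 with the log2 summed level of the 31 genes over 12 embryos. Abundant genes such as Chd3, Cbx5, Chd4 and Trim28 weigh most in the sum of the 18. No r is given for sums of genes drawn from all, so whether 0.896 is particular to this list was not tested. The hepatocyte genes summed to 3497 to 7020 CPM in M-Z+ and 2653 to 6625 CPM in M-Z- embryos.

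Of the other lists, 7 erythroid genes had r = -0.45 over 12 embryos and -0.71 over 9, and 6 neuron genes had 0.638 and 0.414. The remaining lists, for macrophages, skeletal muscle, germ cells, trophoblast and Y-linked genes, had values from -0.45 to 0.338 over 12 embryos. No gene of any list was called in edgeR, beside 0.0811% of all tested genes. An unadjusted p below 0.05 was reached by 1 macrophage gene and 2 neuron genes, beside 6.7% of all tested genes. Hepatocyte, erythroid, neuron and muscle genes were all measured in these whole embryos, whereas the trophoblast genes Tpbpa, Prl8a9 and Prl3d1 were at 0 in every library. All these values come from the same libraries, and the part of tissue makeup in the Zfp9xx levels was not tested.

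Several Zfp9xx genes carry a limit from near copies or overlaps. More than 20% of the 50-base words of the transcript were shared with another gene in 7 genes: Zfp934, Zfp963, Zfp932, Zfp937, Zfp936, Zfp931 and Zfp959. The share was highest in Zfp934, at 48.7%, all with Zfp808, and the median over the 30 genes was 1.51%. Zfp960 overlaps Chd1, which had 29611 counts in all against 818 for Zfp960, so its level depends on how reads in the overlap were assigned.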

How the data were processed

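RNA-seq was performed on 12 whole embryos, 6 M-Z+ and 6 M-Z-, grouped by the genotype in the labels, which do not give litter, sex or batch. P-values measure the spread between these embryos. The 12 WGBS libraries of the series were not analysed here. For each gene the authors deposited unnormalized counts and the FPKM values made from them. Counts were used for every test. FPKM gave the gene lengths and, scaled to a common sum in each library, the TPM values. The submitters' processing notes name mm10, HISAT2 2.0.4, Trim Galore 0.4.1, Bismark 0.15.0 and Bowtie2 2.2.9 without saying which served RNA-seq. Which program counted the reads, on which strand and annotation, is not given in the sources used here. In the study's methods, mm9 is described for other libraries.

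R 4.3.3, edgeR 4.0.16 (TMM, filterByExpr, glmQLFit, glmQLFTest), DESeq2 1.42.0, sva 3.50.0, Python 3.11.15 and matplotlib 3.10.9 were used. A gene was called changed at a Benjamini-Hochberg adjusted p below 0.05 over all 16026 tested genes and a log2 fold change beyond 0.5. Log CPM used a prior count of 2. The exact permutation test used all 924 divisions of the embryos. The SE is the log2 fold change divided by the square root of F. The gene length slope is that of log2 CPM against log2 gene length within a library. Tests were checked on simulated counts for 15879 genes with 200 changed, of which edgeR recovered 79% of those changed 2-fold and 96% of those changed 4-fold, with 4 false calls. Each simulated gene was drawn independently of the others, without a gene length slope, and the changed genes were picked from all. These figures therefore do not carry over to the smaller fold changes of the Zfp9xx genes.

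The Zfp9xx genes and all lists were chosen with earlier results of these data known. Genes were named by rule: Zfp57 and Trim28, genes called or not overlapping (0), the 10 with the smallest p, the 10 with the highest TPM, the highest on each chromosome with at least 2 tested, and the 5 largest and 5 smallest BCV. Zfp942, Zfp943, Zfp945, Zfp960, Zfp961, the genes of partner and marker lists and those named for overlaps or shared sequence were named after their values were seen. Gene symbols turned into dates (27) are not named. Shared sequence, fingers and the KRAB pattern came from GENCODE transcripts matched by identifier. The deviations of same-numbered embryos correlated at 0.103, 0.0202, 0.297, 0.329, 0.132 and 0.639 for replicates 1 to 6. All were above 0 and only that of replicate 2 was under 0.1. The labels do not pair these embryos, and whether a batch follows the numbers was not tested.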

Additional observations from a re-analysis of the deposited data

Results flagged for a closer look

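In 60 groups of 6 values, the highest or lowest value was tested for distance from the rest with Dixon's ratio. It passed the 95% limit in 2 groups, where chance alone gives about 1 in 20. Zfp951, a weakly expressed gene on chromosome 5, had 4.69 CPM in M-Z- replicate 5, while the other M-Z- embryos had 1.71 to 2.82 CPM. Zfp964 on chromosome 8 had 10.5 CPM in M-Z+ replicate 6, while the other M-Z+ embryos had 6.58 to 7.73 CPM. Both embryos are among the 3 with the steepest gene length slope, and its part in these values was not tested.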

How the results depend on the processing

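The number of Zfp9xx genes called changed was 0 under each alternative run, namely RLE or upper quartile scaling, DESeq2, 2 other filters, covariates, the replicate block, no fold change limit, the unadjusted p and each embryo left out. Calls over all tested genes, 13 in edgeR, were 37 in DESeq2, 21 with the replicate block, 23 with the gene length slope, 31 with 2 surrogate variables, 247 at the unadjusted p, and 11 to 15 with each embryo left out. Zfp9xx genes at an unadjusted p below 0.05, 0 in edgeR, numbered 4 with the slope, 3 with the replicate block and slope, 1 each with the replicate block (Zfp949), upper quartile scaling or 2 surrogate variables, 2 without the 3 embryos of steepest slope, and 0 to 3 with each embryo left out (3 when M-Z+ replicate 6 was omitted, and 1 when M-Z- replicate 5 or 6 was). Over all tested genes the share was 6.7% in edgeR and 9.82% with the slope. That share is not given for the other settings, so their counts are not read as results about the Zfp9xx genes. The median log2 fold change of the tested Zfp9xx genes, 0.01, was -0.20 with the slope, -0.17 with block and slope, -0.09 with 2 surrogate variables, -0.09 without the 3 embryos, and from -0.07 when M-Z- replicate 5 was omitted to 0.12 when M-Z- replicate 3 was. The replicate numbers were not shown to pair embryos, and the replicate block changed no call of a Zfp9xx gene. Of 26 named Zfp9xx genes 8 kept the sign of the log2 fold change throughout, and none was called under any setting. With the replicate block and the slope, the sign turned for Trim28 (0.090), Zfp930 (-0.26), Zfp934 (-0.24), Zfp937 (-0.23), Zfp942 (-0.25), Zfp944 (-0.16), Zfp945 (-0.25), Zfp946 (-0.074), Zfp948 (-0.14), Zfp950 (-0.20) and Zfp964 (-0.090). With 2 surrogate variables, the sign turned for Trim28 (0.057), Zfp930 (-0.023), Zfp934 (-0.13), Zfp942 (-0.16), Zfp944 (-0.025), Zfp945 (-0.093), Zfp946 (-0.053), Zfp948 (-0.088), Zfp950 (-0.039) and Zfp964 (-0.049). With the slope as a covariate, the sign turned for Zfp930 (-0.088), Zfp933 (-0.018), Zfp934 (-0.36), Zfp942 (-0.27), Zfp944 (-0.17), Zfp945 (-0.23), Zfp946 (-0.24), Zfp948 (-0.20), Zfp950 (-0.30) and Zfp964 (-0.082). With upper quartile scaling, the sign turned for Zfp934 (-0.018) and Zfp964 (-0.015). Without the 3 embryos of steepest slope, an alternative chosen after seeing the data, the sign turned for Zfp934 (-0.23), Zfp942 (-0.12), Zfp944 (-0.066), Zfp945 (-0.015), Zfp946 (-0.24), Zfp948 (-0.12) and Zfp950 (-0.11). With the level of Y-linked genes as a covariate, the sign turned for Zfp943 (0.0064). With the replicate block, the sign turned for Zfp946 (-0.0072). With a mean of at least 50 counts, the sign turned for Zfp964 (-6.5e-05). Leaving out 1 embryo at a time made the log2 fold change cross 0 for Zfp57 (-0.24 to 0.0042), Zfp932 (-0.31 to 0.10), Zfp934 (-0.24 to 0.23), Zfp942 (-0.085 to 0.23), Zfp943 (-0.15 to 0.11), Zfp944 (-0.0078 to 0.25), Zfp945 (-0.0088 to 0.41), Zfp946 (-0.11 to 0.17), Zfp947 (-0.39 to 0.090), Zfp948 (-0.075 to 0.14), Zfp950 (-0.041 to 0.49), Zfp951 (-0.37 to 0.045), Zfp952 (-0.049 to 0.21), Zfp960 (-0.31 to 0.028), Zfp961 (-0.22 to 0.023) and Zfp964 (-0.040 to 0.11). The cause of these turns was not tested. Depth and spread limit what could be seen, and near copies and overlaps limit single genes. The intervals given are those of the fit with genotype alone, and a difference inside them was not excluded by that fit.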
